A study of Bos taurus with 15 samples.

Results

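The genes described here encode surface proteins and a regulator known from T cells: CD3D, CD3E, CD3G, CD247, CD2, CD4, CD5, CD8A, CD8B and FOXP3. They were chosen by symbol, as the rows of the deposited count table that carry these names, and all 10 were present among 32671 gene entries. Across libraries CD4, CD8A, CD8B and FOXP3 had Spearman's rho (a rank correlation) of -0.11 to 0.07 with CD3E. The name T cell genes therefore stands for the 10 symbols, and whether each measures T cells in this tissue was not tested. RNA was sequenced from endometrium, the lining of the uterus, of 15 beef heifers at day 14 of pregnancy, with 5 in each of the classes High-fertile, Sub-fertile and Infertile. All classes shared 1 treatment. Estrus was synchronised with prostaglandin F, gonadotropin-releasing hormone, a vaginal progesterone insert and estradiol, and each heifer received an in vivo embryo on day 7, in the uterine horn beside the corpus luteum. The biopsy was taken with forceps from that horn after the uterus had been flushed. The sources used here do not give age, breed or how the classes were assigned, and no group without an embryo was analysed here.

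T cells recognise antigen through a receptor whose variable chains do not signal by themselves. They rely on the CD3 chains (the genes CD3D, CD3E and CD3G) and on the zeta chain (CD247), which carry the signalling motifs. CD4 and the CD8 alpha and beta chains (CD8A, CD8B) are co-receptors that divide T cells into helper and cytotoxic classes, CD2 is an adhesion receptor, CD5 damps receptor signals, and FOXP3 is the transcription factor of regulatory T cells. In ruminant endometrium T cells lie between epithelial cells and in the stroma, and the maternal immune response has to accommodate an embryo that carries paternal antigens.

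Libraries held between 38017136 and 62858724 counts. The tissue label fitted the markers: epithelial, stromal, endothelial and uterine genes were all present, and EPCAM, an epithelial adhesion molecule, ranged from 277 to 776 CPM (counts scaled to the size of the library). Smooth muscle markers were present too. Their 7 genes summed to 559 to 22366 CPM, against 573 to 1610 CPM for 8 epithelial genes. The smooth muscle mean was highest in Infertile replicate 1 (11.26 on the log2 scale). The 15 libraries separated into sets of 8, 5 and 2 by the levels of 372 pseudogene and ribosomal RNA genes, a split that the labels do not record. The set of 2, High-fertile replicate 1 and Infertile replicate 2, also stood apart on the main axis of variation. In an edgeR fit with fertility class in the model, the 5-library set differed from the 8-library set in 30.7% of the genes tested (adjusted p under 0.05). It differed in 0 of the 10 T cell genes, where the smallest edgeR adjusted p was 0.171 for FOXP3 (log2 difference -0.39). The largest log2 differences were 0.65 for CD8B and 0.50 for CD3D (edgeR adjusted p of 0.354 and 0.226).

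Every T cell gene was counted in every library, with at least 31 counts (CD5, Infertile replicate 1) and at most 662 (CD4, High-fertile replicate 3). All 10 passed the filter on low counts. In a biopsy of mixed tissue, fewer T cells, less RNA per T cell and a change in RNA from other cell types cannot be told apart.

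Levels of different genes were compared per length, in the FPKM values of the deposited table, which divide a gene's counts by its length and the library total. The CD3 epsilon chain gene CD3E had the highest median, 5.51 FPKM over the 15 libraries, followed by the zeta chain gene CD247 with 5.13. CD3E and CD247 did not differ beyond their spread, since the log2 ratio between them averaged 0.12 ± 0.30 (SD) and CD3E was the higher in 10 of 15 libraries. A step followed: CD247 exceeded the next gene, CD8B (2.86 FPKM), in 13 of 15 libraries, by 0.96 ± 0.69 on the log2 scale.

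The middle of the order was crowded. Median levels ran from CD8B through CD4 (2.62 FPKM), CD3G (2.2), CD8A (2.08), CD3D (2.07) and CD2 (1.8) to FOXP3 (1.56), and in each of these neighbouring pairs the mean log2 ratio was smaller than its SD over libraries. CD5 had the lowest median, 0.79 FPKM. FOXP3 was above it in 14 of 15 libraries, by 0.93 ± 0.75 on the log2 scale. The level of FOXP3, the regulatory gene, was 0.294 ± 0.105 (SD, n = 15) of that of CD3E per length.

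The spread over heifers was widest for CD8B, with a coefficient of variation of 47.6%, followed by CD5 with 39.1%, and narrowest for CD247 with 16.9%. CD8B ranged over 5.32-fold between its lowest and highest library, CD5 over 4.38-fold and CD247 over 1.93-fold. CD8A ranged over 5.1-fold, and over 2.71-fold without Sub-fertile replicate 4. Sub-fertile replicate 4 held the lowest value of 7 of the 10 genes (CD3D, CD3E, CD3G, CD247, CD2, CD8A and CD8B). Its CPM summed over the 10 genes was 32.3, against 40.4 to 57.1 in the other libraries.

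**Figure D1:**
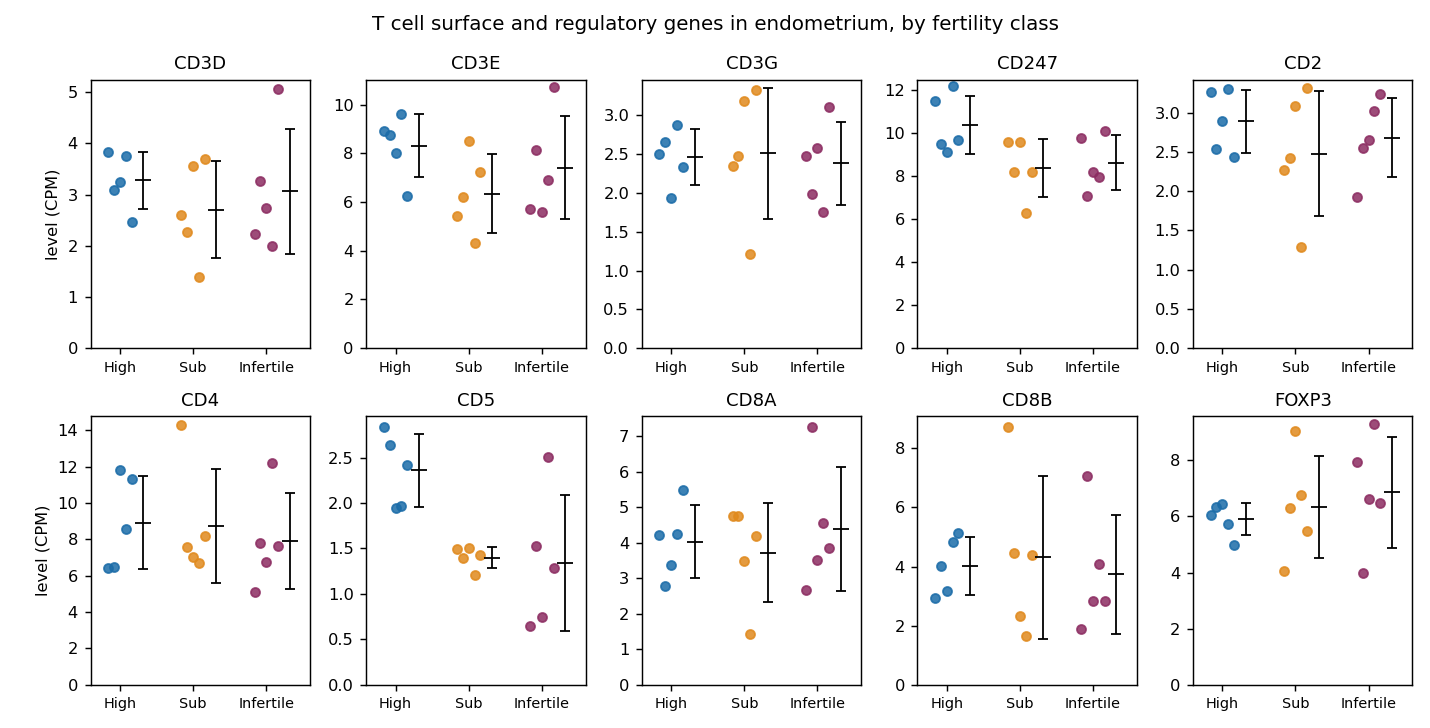
Level of each gene in CPM (y axis from 0) in every library, by fertility class (x axis: High-fertile, Sub-fertile, Infertile). Points are heifers, and the black mark and bar are the class mean ± SD (n = 5). CD5 is the gene whose Sub-fertile points (1.21 to 1.5) all lie below its High-fertile points (1.95 to 2.84).

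The comparison of the classes asks whether the levels of these genes in the endometrium differed with the fertility of the heifer. Of the 10 genes, 0 passed an adjusted p of 0.05 in any pair of classes (edgeR quasi-likelihood test, adjusted over 19962 genes). The background was also 0% of genes called in each comparison, with 2738, 2201 and 525 genes at an unadjusted p under 0.05 for Sub-fertile against High-fertile, Infertile against High-fertile and Infertile against Sub-fertile. DESeq2 called 19, 34 and 11 genes and limma-voom 0, 1 and 1, none of them among the 10. At an unadjusted p under 0.05 the only T cell gene was CD5, lower in Sub-fertile (as were 7.14% of all genes) and lower in Infertile (as were 3.89%) than in High-fertile heifers.

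Against High-fertile, 7 of the 10 genes had a lower and 3 a higher fitted level in Sub-fertile endometrium, with a median log2 fold change of -0.17 beside 0.01 over all genes tested, 49% of which were lower. The median was -0.01 without Sub-fertile replicate 4 and -0.27 without Sub-fertile replicate 1, the extremes when 1 heifer was left out. It was -0.34 in a fit with a term for technical set and -0.37 within the 8-library set. In Infertile endometrium 8 were lower and 2 higher, with a median of -0.11 beside 0.04 over all genes, 46.5% of which were lower. This median was -0.03 without Infertile replicate 1, -0.05 without High-fertile replicate 4 and -0.18 without Infertile replicate 5. With the same term it was -0.23, and it was -0.21 within the 8-library set. These comparisons share their High-fertile libraries. Between Infertile and Sub-fertile 4 were lower and 6 higher, with a median of 0.07 beside 0.03 over all genes (45.3% lower), which ranged from -0.04 without Sub-fertile replicate 4 to 0.14 without Sub-fertile replicate 3 and was 0.17 within the 8-library set.

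**Figure D2:**
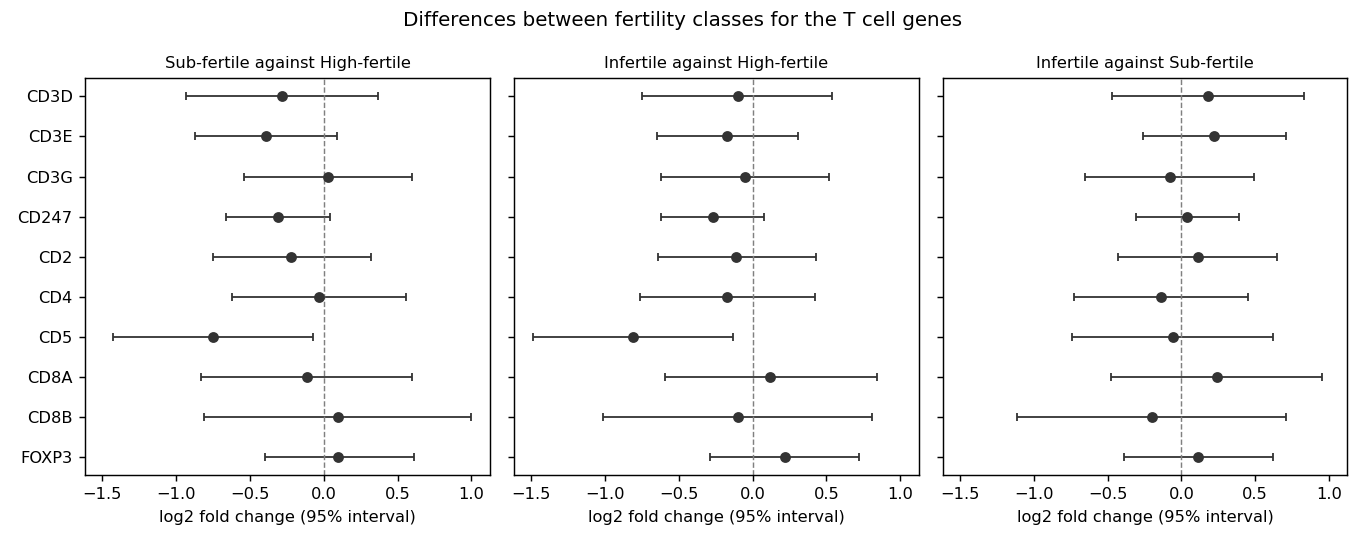
Log2 fold change (x axis) of each gene (y axis) between pairs of fertility classes, with points for the edgeR estimate and bars for its 95% interval. The dashed line marks no difference. The CD5 intervals for Sub-fertile (-1.43 to -0.07) and Infertile (-1.49 to -0.13) against High-fertile are those that do not reach it.

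The signalling chains of the T cell receptor complex come first. CD3E was at 8.92, 8.75, 8.02, 9.63 and 6.24 CPM in the High-fertile heifers, at 5.43, 6.2, 8.51, 4.33 and 7.24 in the Sub-fertile and at 5.7, 8.14, 5.6, 6.89 and 10.7 in the Infertile. The ranges overlapped, although 3 Sub-fertile libraries lay under every High-fertile one. The fitted difference was -0.39 ± 0.226 (SE) on the log2 scale for Sub-fertile against High-fertile, with an edgeR adjusted p of 0.388. For Infertile against High-fertile it was -0.17 ± 0.225, with an edgeR adjusted p of 0.763.

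CD247, whose zeta chain also serves activating receptors of natural killer cells, was at 11.5, 9.52, 9.11, 12.2 and 9.7 CPM in High-fertile heifers. It was at 9.61, 8.22, 9.6, 6.29 and 8.22 CPM in Sub-fertile and at 9.78, 7.06, 8.2, 7.96 and 10.1 in Infertile heifers. In each of those classes 3 of 5 libraries were under the whole High-fertile range and the others were inside it. The log2 differences from High-fertile were -0.31 ± 0.163 and -0.27 ± 0.163, with edgeR adjusted p of 0.369 and 0.515.

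The other CD3 chains overlapped widely between the classes. CD3D (delta chain) averaged 3.28 ± 0.557 CPM (SD, n = 5) in High-fertile, 2.7 ± 0.948 in Sub-fertile and 3.06 ± 1.22 in Infertile heifers. CD3G (gamma chain) averaged 2.46 ± 0.36, 2.51 ± 0.841 and 2.38 ± 0.535 CPM. The High-fertile libraries were the least spread for both genes. The Sub-fertile spread of CD3G included both its lowest value of all 15 heifers (1.21 in replicate 4) and its highest (3.32 in replicate 5). The 95% interval of CD3G for Sub-fertile against High-fertile ran from a fold of 0.686 to 1.51.

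CD2, the adhesion receptor, was at 3.26, 2.54, 2.89, 3.3 and 2.44 CPM in High-fertile, at 2.27, 2.43, 3.09, 1.29 and 3.32 in Sub-fertile and at 1.93, 2.55, 2.65, 3.02 and 3.24 in Infertile heifers. The ranges overlapped, with 3 Sub-fertile libraries and 1 Infertile library under every High-fertile one. The log2 differences from High-fertile were -0.22 ± 0.251 for Sub-fertile and -0.11 ± 0.251 for Infertile (edgeR adjusted p of 0.65 and 0.874).

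CD5 stood out among the 10. CD5 is carried by T cells and by a subset of B cells. It was at 2.84, 2.64, 1.95, 1.97 and 2.42 CPM in the High-fertile heifers, at 1.49, 1.39, 1.5, 1.21 and 1.43 in the Sub-fertile and at 0.649, 1.53, 0.748, 2.51 and 1.28 in the Infertile. All 5 Sub-fertile libraries were below all 5 High-fertile ones, a separation in this direction that 2.81% of the genes tested also had. Of the Infertile libraries 4 were below the High-fertile range, and replicate 4 was inside it.

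The fitted CD5 difference for Sub-fertile against High-fertile was -0.75 ± 0.319 on the log2 scale, a fold of 0.595 (95% interval 0.371 to 0.954), and its edgeR adjusted p was 0.359. For Infertile against High-fertile it was -0.81 ± 0.32, a fold of 0.57 (0.355 to 0.914), with an edgeR adjusted p of 0.439. Without Infertile replicate 4 this estimate was -1.16. When 1 heifer was left out, the unadjusted edgeR p for Sub-fertile was under 0.05 in 5 of 10 fits, with a largest value of 0.0698. For Infertile it was under 0.05 in 8 of 10 fits, with a largest value of 0.0582. Over all settings the estimates ran from -0.81 to -0.55 for Sub-fertile and from -1.16 to -0.52 for Infertile. Within the 8-library technical set the differences were -0.74 and -0.52, and without the 2 libraries apart -0.68 and -0.79. When all classes were tested together the edgeR adjusted p of CD5 was 0.55. The adjusted p from every setting tried lay between 0.145 and 1 for Sub-fertile and between 0.225 and 0.908 for Infertile against High-fertile.

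Markers of B cells lay on the same side as CD5. Of 8 B cell genes tested, 7 had a lower fitted level in Sub-fertile and 7 in Infertile than in High-fertile heifers, with median log2 fold changes of -1.81 and -1.95. Over all genes tested 49% and 46.5% were lower. Of the 8, 0 passed the adjusted threshold (edgeR). At an unadjusted p under 0.05, 5 and 6 were lower, as were 7.14% and 3.89% of all genes. Much of the B cell difference came from High-fertile replicate 1, whose mean log2 CPM over the list was 3.21 against 0.28 to 0.89 in the other High-fertile libraries. Without it the medians were -0.53 and -0.34, with 7 of 9 genes lower in each comparison. Summed over all 10 B cell genes in the table, the levels overlapped: 70.1 to 109 CPM in High-fertile, 53.6 to 113 in Sub-fertile and 37.1 to 149 in Infertile heifers. None of these genes was at 0 in all libraries. Across the 15 heifers CD5 had r = 0.54 and rho = 0.63 with the mean of the list (permutation, adjusted p of 0.209 and 0.0905). Without the 2 farthest heifers, High-fertile replicates 1 and 5, these were 0.40 and 0.49, without the 2 libraries apart 0.49 and 0.53, and with class means removed 0.24 and 0.28. The relation was not particular to B cell markers. CD5 had rho of 0.56 with endothelial, 0.55 with macrophage and dendritic cell and 0.54 with stromal markers (permutation, adjusted p of 0.181, 0.193 and 0.198). With epithelial and smooth muscle markers its rho was 0.19 and -0.01. The part of B cells or of these other cell types in the CD5 difference was not tested.

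The co-receptor of helper cells, CD4, was at 6.43, 6.49, 11.8, 8.55 and 11.3 CPM in High-fertile, at 14.3, 7.57, 7.01, 6.72 and 8.17 in Sub-fertile and at 5.13, 7.78, 6.77, 12.2 and 7.66 in Infertile heifers. Each class had 1 or 2 heifers above 11 CPM and the rest below 9. The log2 differences from High-fertile were -0.03 ± 0.277 for Sub-fertile and -0.17 ± 0.277 for Infertile (edgeR adjusted p of 0.964 and 0.809). For Sub-fertile the difference was -0.28 without Sub-fertile replicate 1 and -0.49 within the 8-library set.

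CD8B, the beta chain of the cytotoxic co-receptor, was at 2.94, 4.03, 3.18, 4.83 and 5.14 CPM in High-fertile, at 8.72, 4.47, 2.32, 1.64 and 4.39 in Sub-fertile and at 1.88, 7.06, 2.85, 4.09 and 2.83 in Infertile heifers. CD8A, the alpha chain, which natural killer cells and gamma-delta T cells can also carry, was at 4.23, 2.78, 3.38, 4.26 and 5.49 CPM in High-fertile, at 4.75, 4.77, 3.48, 1.43 and 4.19 in Sub-fertile and at 2.68, 7.27, 3.53, 4.55 and 3.86 in Infertile heifers. For both genes the High-fertile heifers were the least spread (SD 0.974 for CD8B and 1.03 for CD8A, n = 5). The other classes extended past them on either side, except that no Sub-fertile heifer exceeded the highest High-fertile CD8A. The log2 difference of CD8B for Sub-fertile against High-fertile was 0.10 ± 0.426, the widest error among the 10 genes, with an interval from -0.81 to 1.00. Within the 8-library technical set, which holds Sub-fertile replicates 3 and 4 alone of their class, it was -1.13, with an edgeR adjusted p of 0.649.

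FOXP3, the regulatory gene, was at 6.06, 6.33, 6.43, 5.73 and 5 CPM in High-fertile, at 4.07, 6.32, 9.05, 6.78 and 5.49 in Sub-fertile and at 7.94, 3.98, 6.64, 9.3 and 6.48 in Infertile heifers. The High-fertile libraries filled a narrow band (SD 0.575) inside the ranges of the other classes (SD 1.83 and 1.98). The log2 differences from High-fertile were 0.10 ± 0.238 and 0.22 ± 0.238 (edgeR adjusted p of 0.836 and 0.706). Differences between the spreads of the classes were not tested.

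Ratios between pairs of the genes do not depend on the scaling of the libraries. Whether they follow the balance of T cell classes was not tested. Across the 15 heifers the rho with CD3E was -0.05 for CD4, 0.07 for CD8A, 0.03 for CD8B and -0.11 for FOXP3. Per length, CD4 was 1.55 ± 0.504 times CD8A in High-fertile, 1.81 ± 0.866 in Sub-fertile and 1.3 ± 0.388 in Infertile heifers (SD, n = 5 each). CD8B was 1.47 ± 0.398, 1.6 ± 0.617 and 1.17 ± 0.158 times CD8A. The class ranges overlapped for both ratios. Of 9 ratio tests, 0 reached an adjusted p of 0.05 (exact 2-sided permutation tests, smallest possible p of 0.00794), and 0 had an unadjusted p under 0.05.

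FOXP3 per CD3E gave the largest ratio difference. By length-scaled level the ratio was 0.218, 0.232, 0.258, 0.19 and 0.256 in High-fertile heifers, 0.241, 0.327, 0.341, 0.502 and 0.243 in Sub-fertile and 0.446, 0.156, 0.38, 0.433 and 0.194 in Infertile. Of the Sub-fertile libraries 3 were above the whole High-fertile range, and of the Infertile libraries 3 were above it, 1 was inside it and 1 was below it. The mean log2 ratio of counts was 0.47 higher in Sub-fertile than in High-fertile heifers (exact permutation p = 0.0635, adjusted over 9 tests 0.529) and 0.36 higher in Infertile (exact permutation p = 0.254, adjusted 0.529). When 1 heifer was left out the Sub-fertile difference ranged from 0.31 (without Sub-fertile replicate 4, exact permutation p = 0.103) to 0.57 (without Sub-fertile replicate 1 or 5, exact permutation p of 0.0238 and 0.0317, adjusted 0.143 and 0.19). The Infertile difference ranged from 0.21 (without Infertile replicate 1) to 0.59 (without Infertile replicate 2). Within the 8-library set the differences were 0.83 and 0.92 (exact permutation p of 0.0667 for each, adjusted 0.3). That set leaves High-fertile replicates 2 to 5 against Sub-fertile replicates 3 and 4 or Infertile replicates 1 and 4. With so few libraries 0.0667 is the smallest p possible, so these tests could not fall under 0.05.

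Across the 15 heifers, regardless of class, the genes did not all vary together. The relations were measured on log2 CPM for all 45 pairs, with permutation p adjusted over the 45, and 7 pairs passed 0.05 by Spearman's rho, 6 of them positive and 1 negative. Among CD3D, CD3E, CD3G and CD2, 4 of 6 pairs passed. CD3D followed CD3E with r = 0.88 and rho = 0.83 (permutation p of 7e-05 and 0.00029, adjusted 0.00315 and 0.0063), and without the 2 heifers farthest from the CD3D median r was 0.75. CD3D followed CD2 with r = 0.82 and rho = 0.81 (permutation p of 0.0003 and 0.00056, adjusted 0.00405 and 0.0063), with r = 0.66 without the 2 farthest.

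CD3E and CD2 also varied together, with r = 0.81 and rho = 0.74 (permutation p of 0.00023 and 0.00199, adjusted 0.00405 and 0.0179), and CD3D and CD3G with r = 0.77 and rho = 0.70 (permutation p of 0.00101 and 0.00488, adjusted 0.00909 and 0.0366). Without the 2 farthest heifers, Infertile replicate 5 and Sub-fertile replicate 4 for both pairs, these r were 0.69 and 0.51. The other pairs did not pass: CD3G had rho = 0.61 with CD2 and 0.53 with CD3E (permutation, adjusted p of 0.0885 and 0.171), and r of 0.50 and 0.18 without the 2 farthest. Within the 8-library technical set the rho of the 4 pairs were 0.86 (CD3D with CD3E), 0.76 (CD3D with CD2), 0.83 (CD3E with CD2) and 0.81 (CD3D with CD3G). The zeta chain gene CD247 followed the CD3 chains less closely, with rho of 0.51 to CD3D, 0.51 to CD3E and 0.45 to CD3G, none of which passed the adjusted threshold (permutation, adjusted p of 0.182, 0.182 and 0.272).

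**Figure D3:**
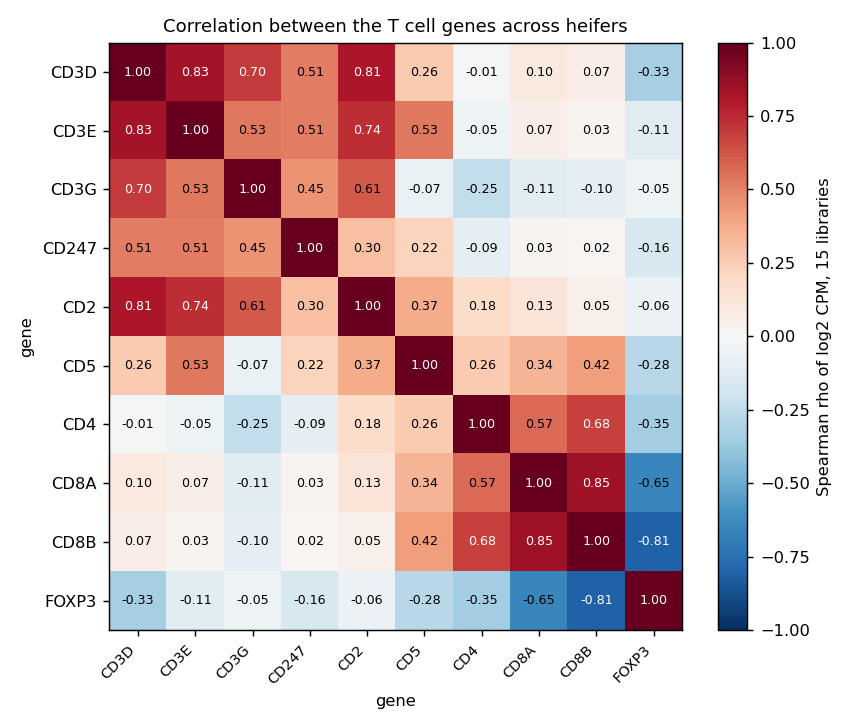
Spearman rho of log2 CPM over 15 libraries for each pair of genes (both axes list the genes, color and printed value give rho). CD3D, CD3E, CD3G and CD2 share positive values of 0.53 to 0.83, CD4, CD8A and CD8B share values of 0.57 to 0.85, and FOXP3 is at -0.65 and -0.81 with CD8A and CD8B.

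Among the co-receptors 2 of 3 pairs passed. CD8A followed CD8B with r = 0.79 and rho = 0.85 (permutation p of 0.00036 and 0.00014, adjusted 0.00405 and 0.0063), with r = 0.68 without the 2 farthest heifers and rho = 0.88 in the 8-library set. CD4 followed CD8B with r = 0.64 and rho = 0.68 (permutation p of 0.0103 and 0.00655, adjusted 0.0517 and 0.0421), with r = 0.51 without the 2 farthest and rho = 0.57 in the 8-library set. CD4 with CD8A did not pass, with r = 0.44 and rho = 0.57 (permutation, adjusted p of 0.252 and 0.136). The rho with CD3E was 0.07 for CD8A, 0.03 for CD8B and -0.05 for CD4 (permutation, adjusted p of 0.959, 0.964 and 0.959). Whether these rho differ from those among the CD3 chains was not tested. In the 8-library set CD8A and CD8B had rho of 0.33 and 0.48 with CD3E.

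FOXP3 ran opposite to CD8B. The relation had r = -0.74 and rho = -0.81 (permutation p of 0.0017 and 0.00049, adjusted 0.0127 and 0.0063), and r was -0.72 without the 2 farthest heifers. In the 8-library set rho was -0.55, with an exact permutation p of 0.171. Infertile replicate 2 had the lowest FOXP3 (3.98 CPM) and the second highest CD8B (7.06), and Sub-fertile replicate 1 had the second lowest FOXP3 (4.07) and the highest CD8B (8.72). With CD3E the rho of FOXP3 was -0.11 and with CD4 -0.35 (permutation, adjusted p of 0.959 and 0.503). Without the 2 farthest heifers, and within the 8-library set, 0 of the 45 pairs passed the adjusted threshold by r or rho (permutation tests, exact for the 8 libraries).

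Each gene was then set beside lists of markers for cell types of the tissue, as the mean log2 CPM of a list, giving 70 relations adjusted together. CD3D, CD3E and CD2 followed genes of T cell receptor signalling and costimulation, with r of 0.75, 0.79 and 0.82 (permutation, adjusted p of 0.0196, 0.0107 and 0.0107) and rho of 0.72, 0.72 and 0.64 (permutation, adjusted p of 0.08, 0.08 and 0.0889). Without the 2 heifers farthest on that list r was 0.55, 0.67 and 0.52. The same list had rho of -0.01 with CD4, 0.23 with CD8A, 0.04 with CD8B and -0.04 with FOXP3 (permutation, adjusted p of 0.977, 0.82, 0.958 and 0.958).

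CD8B followed stromal fibroblast markers (collagens, decorin, lumican, platelet-derived growth factor receptors and vimentin), with r = 0.79 and rho = 0.82 (permutation p of 0.00046 and 0.00018, adjusted 0.0107 and 0.0126). It was the only 1 of the 70 relations to pass by rho. Without the 2 heifers farthest on the stromal list r was 0.77 and rho 0.76, and in the 8-library set rho was 0.74. Neither rho passed the adjusted threshold (permutation, adjusted p of 0.246 and 0.321). With class means removed rho was 0.72, and without the 2 libraries apart 0.82 (permutation, adjusted p of 0.0812 and 0.0325). CD8A and CD4 had r of 0.58 and 0.67 with the stromal list (permutation, adjusted p of 0.14 and 0.0756) and rho of 0.68 and 0.67 (permutation, adjusted p of 0.08 for each), with r of 0.68 and 0.64 without the 2 farthest. None of the 8 stromal genes was at 0 in all libraries, and their summed level was 14889 to 25218 CPM in High-fertile, 12129 to 29471 in Sub-fertile and 9882 to 38607 in Infertile heifers. Their part in the CD8 and CD4 levels was not tested.

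FOXP3 had the opposite relation to tissue composition. It had r = 0.65 and rho = 0.66 with epithelial markers (permutation, adjusted p of 0.0824 and 0.08) and r = -0.69 and rho = -0.68 with stromal markers (permutation, adjusted p of 0.0664 and 0.08). Without the 2 heifers farthest on the epithelial list, Sub-fertile replicates 1 and 3, its r with that list was 0.35, so the relation rests on them by this measure. With the stromal list r was -0.69 without the 2 farthest. By comparison, the rho of CD8B with epithelial markers was -0.61 (permutation, adjusted p of 0.109). In the 8-library set the rho of FOXP3 was 0.81 with the epithelial and -0.52 with the stromal list. Without the 2 libraries apart the rho with the epithelial list was 0.84 (permutation, adjusted p of 0.0325). The 8 epithelial genes summed to 806 to 1179 CPM in High-fertile, 573 to 1543 in Sub-fertile and 917 to 1610 in Infertile heifers, and none was at 0 in all libraries. Their part in the FOXP3 level was not tested. CD4 was also opposite to smooth muscle markers, with r = -0.64 and rho = -0.70 (permutation, adjusted p of 0.0852 and 0.08), and r = -0.46 without the 2 farthest heifers.

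**Figure D4:**
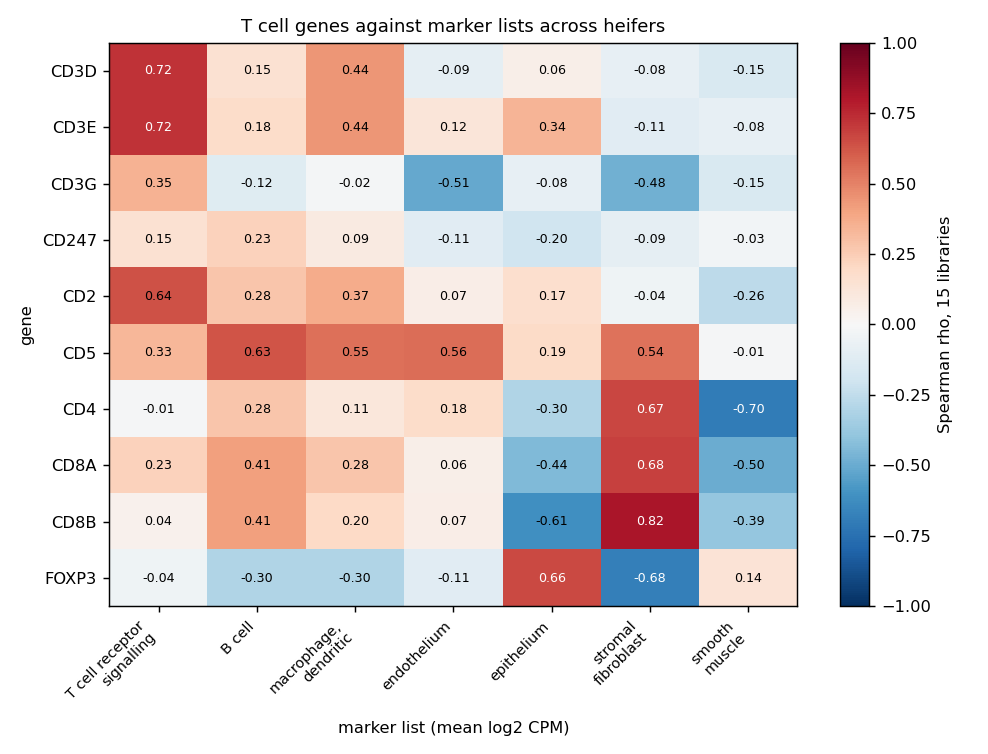
Spearman rho over 15 libraries between the log2 CPM of each gene (rows) and the mean log2 CPM of a list of marker genes (columns), with color and printed value giving rho. CD3D, CD3E and CD2 are at 0.64 to 0.72 with T cell receptor signalling genes, CD4, CD8A and CD8B are at 0.67 to 0.82 with stromal genes, and FOXP3 is at -0.68 with stromal and 0.66 with epithelial genes.

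**Figure D5:**
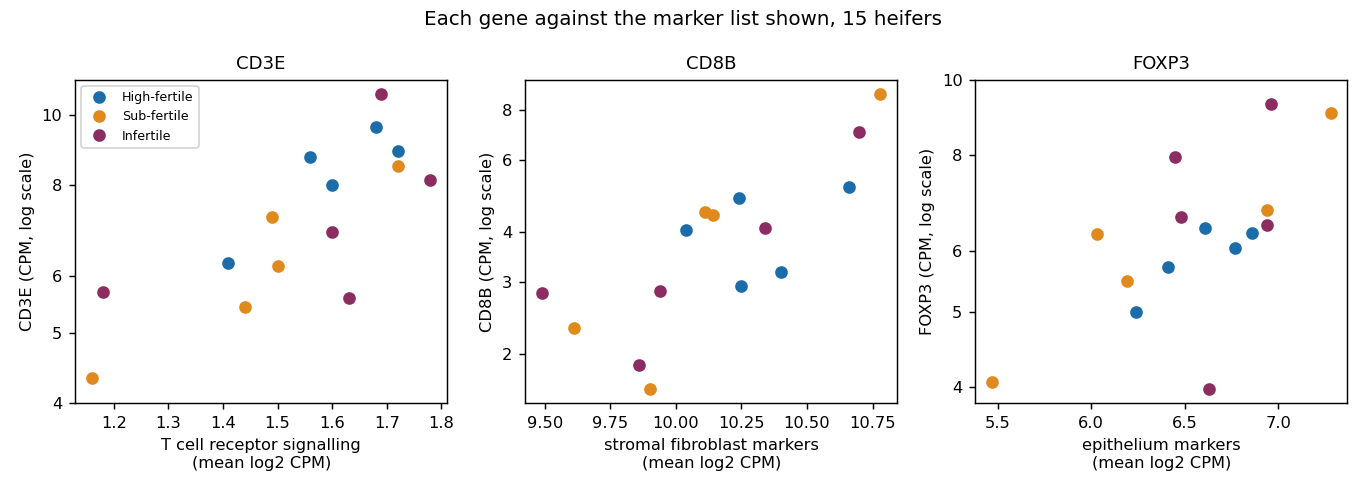
Level of CD3E, CD8B and FOXP3 in CPM (y axes, log scale) against the mean log2 CPM of the marker list named on each x axis, with 1 point for each of 15 libraries colored by class. Sub-fertile replicate 1 has both the highest CD8B (8.72 CPM) and the highest stromal mean (10.78), and in the FOXP3 panel Infertile replicate 2 (3.98 CPM) lies under the other points of similar epithelial level.

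The genes most like CD3E among 19952 others, by Spearman's rho over 15 libraries, were mostly genes of leukocytes. The nearest was DOCK2, which drives lymphocyte migration (rho = 0.85), followed by the lymphocyte adaptor SASH3 (0.82). LCK, the kinase that starts signalling at the CD3 chains, RHOH, a small GTPase of lymphocytes, TBX21, the T-bet transcription factor, and IL2RG, the shared cytokine receptor chain, had rho of 0.78, 0.78, 0.76 and 0.75. A constant region of the T cell receptor beta chain had 0.74, and the entries LOC104971676, LOC101907361 and LOC101907242, which have no described function, had 0.78, 0.75 and 0.74. By Pearson's r 6 of these 10 were again among the first 10. These rho describe the same 15 libraries, which differ in depth and in tissue mix, and the first 10 of so many genes are high by selection.

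Ranked for the other T cell genes, an addition made after the data had been seen, the nearest genes differed. The names given are a choice from each first 10, made after their values were seen. For CD3D and CD2 they included PTPRC, the pan-leukocyte phosphatase CD45, with rho of 0.88 and 0.80. For CD3D they also included FLT3 (0.87) and CLEC9A (0.79), both in the macrophage and dendritic cell list. For CD3G they included P2RY10 (0.91) and TARP (0.85), and also the enzyme gene EHHADH (0.79). For CD247 they included GIMAP1 (0.78), a GTPase of lymphocytes, and also TMEM185A (0.70) and POLR3A (0.68), a subunit of an RNA polymerase. CD8B was nearest to MMP19 (0.95), SFRP1 (0.94), WNT2 (0.94) and SNAI2 (0.94), which encode a matrix protease, a secreted WNT inhibitor, a WNT ligand and a mesenchymal transcription factor. CD8A was nearest to ZBTB14 (0.94) and NCALD (0.92). CD4 was nearest to LOX (0.89), which cross-links collagen, and had FGF10 (0.84), a mesenchymal growth factor, among its first 10.

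FOXP3 was nearest to a cytochrome c entry (LOC100847700, 0.92), the nucleoside transporter SLC29A2 (0.91) and the purine receptor P2RX3 (0.90), and EZR, a linker of membrane and cytoskeleton in epithelial microvilli, had 0.87. CD5 was nearest to NDST2 (0.91), a heparan sulfate enzyme, and to MAP4K1 (0.90) and RASAL3 (0.88), which act in lymphocyte signalling. Its first 10 also held NOTCH4 (0.84). CD6, the paralog and genomic neighbour of CD5, had rho = 0.80. The 10 T cell genes themselves were left out of the rankings.

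Companion genes of each T cell class gave a further description. Of regulatory T cell genes, CTLA4, an inhibitory receptor, had 0 to 6 counts per library and 30 in all, was listed at 0 in 7 libraries and was under the filter. IL2RA, the high-affinity interleukin 2 receptor chain, had 14 to 91 counts, whereas FOXP3 had 156 to 478. Per length the medians were 0.41 FPKM for IL2RA and 1.56 for FOXP3. Across heifers FOXP3 had rho of -0.08 with IL2RA, 0.13 with TNFRSF4 and 0.33 with TNFRSF18, receptors of the tumor necrosis factor family. Among 18 regulatory and checkpoint genes its rho ran from -0.65 (IKZF4, a zinc finger transcription factor) to 0.62 (IL10, an anti-inflammatory cytokine), with a median of 0.09. Its genomic neighbours CCDC22 and PPP1R3F had rho of 0.31 and 0.43. The strand setting of the counting was not stated, so whether reads of adjoining genes were shared was not tested.

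Of cytotoxic genes, GZMB (granzyme B) had 0 to 24 counts per library and was under the filter. PRF1, the pore-forming perforin, had rho of 0.00 with CD8A, -0.19 with CD8B and 0.71 with CD3E. CTSW, a protease of cytotoxic lymphocytes, had -0.20, -0.25 and 0.70, and NKG7, a cytotoxic granule protein, had 0.21, 0.27 and 0.62. These 3 had higher rho with CD3E than with either CD8 chain. The reverse held for GZMK (granzyme K), with 0.12 for CD3E, 0.42 for CD8A and 0.36 for CD8B. GZMA (granzyme A) had 0.25 with CD3E, 0.39 with CD8A and 0.12 with CD8B. The differences between these rho were not tested. ZAP70, the kinase that binds the phosphorylated zeta chain, had rho of -0.05 with CD3E and 0.83 with CD8B.

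The chains of the T cell receptor itself were mostly at low counts. Of 45 entries described as T cell receptor chains, 5 passed the filter and 4 were at 0 in every library. The beta chain constant region (LOC100300510) averaged 6.33 ± 1.25 CPM (SD, n = 5) in High-fertile, 4.23 ± 0.985 in Sub-fertile and 4.28 ± 0.858 in Infertile heifers. A gamma chain constant region (LOC100335205), carried by gamma-delta T cells, which are abundant in ruminants, averaged 3.39 ± 1.14, 2.69 ± 1.32 and 3.01 ± 1.5 CPM. The gamma chain followed CD3D with rho = 0.83 and CD3E with 0.73, and the beta chain followed them with 0.46 and 0.74. Entries of these families are near-identical copies, so counts could be split between them.

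Further T cell genes were read from 6 lists, and 0 genes of any list passed the adjusted threshold in any pair of classes (edgeR). Of 23 T cell receptor signalling and costimulation genes tested, 16 had lower fitted levels in Sub-fertile than in High-fertile heifers (median log2 fold change -0.12). Over all genes tested 49% were lower, with a median of 0.01. Of the 23, 4 were lower and 0 higher at an unadjusted edgeR p under 0.05, where 7.14% of all genes were lower. Of 19 T cell transcription factors 15 were lower (median -0.24), and of 19 homing, residency and survival genes 16 were lower (median -0.20). Of 18 regulatory and checkpoint genes 12 were lower (median -0.09). Of 5 gamma-delta T cell genes 4 were lower (median -0.44). The cytotoxic and natural killer cell genes did not share this side: 10 of 22 were lower and 12 higher, with a median of 0.07. At an unadjusted p under 0.05 there were 2 transcription factors lower and 1 higher, 3 homing genes lower, and 1 regulatory and 1 gamma-delta gene lower. Of the cytotoxic genes 1 was lower and 1 higher. Of all 19962 genes tested 7.14% were lower at that p, and 2738 were under it in either direction. Without Sub-fertile replicate 4 the receptor signalling list had 13 of 23 genes lower and a median of -0.01. The cytotoxic median was -0.23 without Sub-fertile replicate 3, -0.10 without High-fertile replicate 5, -0.09 without Sub-fertile replicate 5 and 0.27 without Sub-fertile replicate 4.

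In Infertile against High-fertile heifers the same lists had 12 of 23, 11 of 19, 12 of 19, 11 of 18 and 5 of 5 genes lower, with medians of -0.03, -0.28, -0.16, -0.15 and -0.78, and the cytotoxic list had 8 of 22 lower with a median of 0.13. Over all genes tested 46.5% were lower, with a median of 0.04. Without Infertile replicate 1 the receptor signalling median was 0.11, and without High-fertile replicate 1 it was 0.05 and the homing median 0.02. Markers of other cell types were also compared with High-fertile. For Sub-fertile heifers 13 of 14 macrophage and dendritic cell genes and 9 of 9 endothelial genes were lower, with medians of -0.44 and -0.52. Smooth muscle had 7 of 7 lower (median -1.19, or 0.01 with a term for technical set), stromal fibroblast 7 of 8 (-0.17) and epithelium 6 of 8 (-0.08). For Infertile heifers these 5 lists had 11 of 14, 9 of 9, 3 of 7, 5 of 8 and 3 of 8 lower. Their medians were -0.23, -0.53, 0.07, -0.09 and 0.18. The macrophage and dendritic cell genes summed to 139 to 276 CPM in High-fertile, 108 to 141 in Sub-fertile and 93.1 to 250 in Infertile heifers, and the endothelial genes to 878 to 1617, 719 to 1107 and 708 to 1042. No macrophage, dendritic cell or endothelial gene was at 0 in all libraries. The part of these lists in the T cell values was not tested.

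From each list the 2 genes with the smallest p over all classes are given. LAT, the adaptor that gathers signalling proteins under the receptor, averaged 3.4 ± 0.362 CPM (SD, n = 5) in High-fertile, 2.31 ± 0.536 in Sub-fertile and 1.97 ± 0.692 in Infertile heifers, and its Infertile range (1.1 to 2.83) lay below its High-fertile range (3.11 to 3.9). A separation in that direction was found in 1.1% of the genes tested. CD27, a costimulatory receptor of T and B cells, averaged 2.12 ± 0.545, 1.18 ± 0.256 and 1.78 ± 0.647 CPM, and its Sub-fertile libraries (0.852 to 1.52) lay below the High-fertile ones (1.55 to 2.88), as did those of 2.81% of the genes tested. SELPLG, the selectin ligand used in homing, averaged 5.47 ± 1.26, 2.76 ± 1.07 and 3.75 ± 2.19 CPM. LAT and CD27 were named for a small p in these same libraries, so the shares over all genes do not measure how unusual their separation is. LAT, CD27 and SELPLG each had an edgeR adjusted p of 0.55 when all classes were tested together.

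IKZF1, the lymphoid transcription factor Ikaros, averaged 5.87 ± 2.28 CPM in High-fertile, 3.8 ± 0.539 in Sub-fertile and 3.9 ± 0.866 in Infertile heifers. TGFB1, an immunosuppressive cytokine that many cell types make, averaged 22.3 ± 5.35, 12.6 ± 2.05 and 17.1 ± 10 CPM. KLRK1, an activating receptor of cytotoxic cells, ran the other way, with 1.07 ± 0.313, 1.67 ± 0.997 and 1.97 ± 0.464 CPM. CD160, a receptor of cytotoxic cells, averaged 13.5 ± 1.77, 18.7 ± 4.53 and 14.4 ± 3.86 CPM. BATF, TNFRSF4, CCR7, BLK and WC1.3 were the remaining genes named by that rule. The edgeR adjusted p over all classes was 0.55 for each of these 12 genes.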

How the data were processed

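Per the labels, polyA RNA of 15 endometrial biopsies (1 library per heifer) was made into stranded Illumina libraries. Per the submitters' processing notes, FastQC, Subread, featureCounts and edgeR were used with the build UMD3.1. Neither labels nor notes state versions, annotation or strand setting. The authors deposited 1 table with counts per gene and library and with FPKM values, which divide counts by gene length and library total (scale checked from the table, largest deviation 0.38%). Of 32671 gene entries 4555 were at 0 in all libraries.

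Counts were tested with edgeR 4.0.16 (R 4.3.3): filterByExpr by class left 19962 genes, followed by TMM scaling, robust quasi-likelihood fits of the 3 classes and Benjamini-Hochberg adjustment over all 19962 genes, threshold 0.05, checked on simulated data. Log2 CPM used a prior count of 2. Ratios used counts with 0.5 added. Correlations used 100000 permutations (exact for 8 libraries, where there are 40320 orders). Alternatives were limma 3.58.1 (voom), DESeq2 1.42.0, other scalings and filters, technical sets and leaving out each heifer. Their effect on the gene lists, the relations of all pairs of the 10 genes and those with marker lists were added after seeing the data. The 10 genes and all lists were chosen with earlier results of these data known. Named genes were the 10, the 2 of each T cell list with the smallest p in the test of any class difference, and the 10 most like CD3E; others were named after their values were seen. All 10 symbols matched RefSeq (assembly ARS-UCD2.0), which was used for names and neighbours only. Replicate numbers follow the order of accession and name heifers only, and p-values measure the spread between heifers. The smallest count behind a value of the 10 genes was 31, and values with few counts are the least precise.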

Additional observations from a re-analysis of the deposited data

Results flagged for a closer look

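CD4 in Sub-fertile replicate 1 was at 14.3 CPM, far from the other 4 Sub-fertile heifers, which lay between 6.72 and 8.17. The gap to the nearest was 0.807 of the range of the class, above the limit of 0.71 for 5 values. Of 39 groups of values examined this was the only 1 past the limit, where chance gives about 1 in 20. The same library held the highest CD8B of all 15 (8.72 CPM) and the highest mean of the stromal fibroblast list (10.78 on the log2 scale) with the lowest mean of the epithelial list (5.47). Their part in the CD4 value was not tested. Without this heifer the CD4 difference of Sub-fertile against High-fertile was -0.28 in place of -0.03.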

How the results depend on the processing

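No T cell gene was called in any of the fits tried. Of 660 refits of a gene's fold change 609 kept their direction. No paired analysis was possible because the labels give no replicate numbers. With the technical set as a covariate, CD3G and CD8B were -0.22 and -0.32 for Sub-fertile against High-fertile and CD8A -0.10 for Infertile against High-fertile. In the 8-library set the values were -0.18 (CD3G) and -1.13 (CD8B) for Sub-fertile and -0.15 (CD8A) for Infertile against High-fertile, and -0.22 (CD3D), -0.02 (CD3E), 0.34 (CD4), 0.22 (CD5) and 0.60 (CD8B) for Infertile against Sub-fertile; there CD8B per CD8A was -0.33 (Sub-fertile against High-fertile) and FOXP3 per CD3E 0.09 (Infertile against Sub-fertile). Without 1 heifer the ratio differences ranged from -0.11 to 0.26 (CD8B per CD8A) and -0.08 to 0.32 (CD4 per CD8A), Sub-fertile against High-fertile, and from -0.26 to 0.12 (FOXP3 per CD3E, Infertile against Sub-fertile). Without the 2 libraries apart, CD3G was 0.01 and CD8A -0.12 for Infertile against High-fertile, and CD8A -0.02 for Infertile against Sub-fertile. limma-voom gave -0.06 (CD3G) and -0.16 (CD8B) and upper-quartile scaling 0.02 (CD4) for Sub-fertile against High-fertile. Leaving out 1 heifer gave ranges, for Sub-fertile against High-fertile, of -0.10 to 0.20 (CD3G), -0.28 to 0.09 (CD4), -0.22 to 0.09 (CD8A), -0.33 to 0.29 (CD8B) and -0.06 to 0.23 (FOXP3); for Infertile against High-fertile, of -0.36 to 0.02 (CD3D), -0.17 to 0.05 (CD3G), -0.14 to 0.26 (CD8A) and -0.46 to 0.07 (CD8B); and for Infertile against Sub-fertile, of -0.08 to 0.32 (CD3D), -0.24 to 0.05 (CD3G), -0.03 to 0.10 (CD247), -0.04 to 0.24 (CD2), -0.34 to 0.10 (CD4), -0.41 to 0.10 (CD5), -0.02 to 0.36 (CD8A), -0.56 to 0.23 (CD8B) and -0.01 to 0.27 (FOXP3). With CD3E, the rho of CD3D was 0.86 in the 8-library set and that of CD2 0.83, past no adjusted threshold there, and that of CD2 was 0.66 without the 2 heifers farthest in CD3E. The rho of CD4 was 0.14 in the 8-library set and 0.09 without the 2 libraries apart, and those of CD8A and CD8B were -0.13 and -0.08 without the 2 farthest. Over all genes, calls were 19, 34 and 11 with DESeq2 and 1 and 1 with limma-voom in the comparisons of Infertile heifers. For Sub-fertile against High-fertile they were 3 without the 2 libraries apart and 0 to 3 leaving out 1 heifer. The cause of these changes was not tested.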
